A study of Mus musculus with 6 samples.

Results

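The desaturases and elongases of fatty acids other than Scd1 and Elovl6 were examined in mouse liver. They were Fads1, Fads2, Fads3, Fads6, Scd2, Elovl1, Elovl2, Elovl3 and Elovl5, chosen by symbol as the listed members of these families, and all 9 were found among the 55487 genes of the count table. Liver RNA was sequenced from 3 male wild-type mice (C57BL/6J, by the study's methods) that received GalNAc-siNC, a control siRNA, and 3 that received GalNAc-siRnf10, an siRNA against the E3 ubiquitin ligase Rnf10. Both siRNAs carried N-acetylgalactosamine, a sugar that directs uptake to hepatocytes, and were injected under the skin of mice kept on normal chow, whose livers were taken at 17 weeks of age. The labels place all libraries in a single batch, and the replicate numbers of the groups stand for different animals.

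Long-chain polyunsaturated fatty acids are made from dietary linoleic and alpha-linolenic acid by alternating desaturation and elongation in the endoplasmic reticulum. Fads2 introduces the first double bond, Elovl5 adds a pair of carbons, Fads1 introduces the next double bond to give arachidonic or eicosapentaenoic acid, and Elovl2 carries the chain on towards docosahexaenoic acid. Liver is a main site of this synthesis, and SREBP-1c and PPAR-alpha are known regulators of Fads1, Fads2 and Elovl5. Not all of the 9 genes serve it: Elovl1 and Elovl3 act mainly on saturated and monounsaturated chains, Scd2 makes monounsaturated fatty acids, and Fads3 acts on sphingoid bases.

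The catalytic motifs are shown because they are what these enzymes have in common. Desaturases and elongases both hold iron-binding or catalytic histidines in short boxes. The codons of a box of the form HxxHH (H for histidine, x for any residue) were read from GENCODE M21 transcripts (GRCm38) and are printed 5′ to 3′ on the coding strand, with the box in capitals and the flanking codons in lower case. For Fads1, which held a pair of such boxes, the one at the place matching Fads2 and Fads3 is shown. The Fads genes read as follows.
Fads1 (chr19:10186776-10186808, plus strand): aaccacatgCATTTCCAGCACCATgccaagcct
Fads2 (chr19:10082637-10082669, minus strand): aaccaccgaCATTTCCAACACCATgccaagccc
Fads3 (chr19:10054248-10054280, plus strand): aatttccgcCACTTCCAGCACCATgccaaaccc
Fads6 (chr11:115284227-115284259, minus strand): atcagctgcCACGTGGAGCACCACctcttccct
Within the 15 bases of the box, Fads1 differed from Fads2 at 1 base and from Fads3 at 1 base, and Fads2 and Fads3 differed at 2. Fads6, whose box lies elsewhere in its protein, differed from Fads1 at 5 bases, and from Elovl2, Elovl3 and Elovl5 at 4 each. These Fads6 counts do not compare boxes at matching places, so they do not place it nearer to either family. The elongases, with Elovl6 beside them, read as follows.
Elovl1 (chr4:118431445-118431477, plus strand): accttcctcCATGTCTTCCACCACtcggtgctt
Elovl2 (chr13:41189992-41190024, minus strand): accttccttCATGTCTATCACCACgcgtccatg
Elovl5 (chr9:77976841-77976873, plus strand): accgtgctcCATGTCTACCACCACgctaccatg
Elovl3 (chr19:46134413-46134445, plus strand): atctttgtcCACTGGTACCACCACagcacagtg
Elovl6 (chr3:129633098-129633130, plus strand): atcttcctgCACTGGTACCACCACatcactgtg
Elovl5 differed from Elovl1 and from Elovl2 at 1 base each. Elovl3 had the same 15 bases as Elovl6, an elongase of saturated chains, and differed from Elovl5 at 4 bases and from Elovl1 and Elovl2 at 5 each. Fads1 and Elovl5 also differed at 4 bases, so these short boxes did not separate the families by their number of differing bases. The second box of Scd2 and Scd1, shown because these paralogs are close in sequence, read as follows.
Scd2 (chr19:44303003-44303035, plus strand): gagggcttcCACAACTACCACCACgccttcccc
Scd1 (chr19:44398084-44398116, minus strand): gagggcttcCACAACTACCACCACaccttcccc
These 33 bases differed at 1 position. Over the whole exons, 217 of the 5461 windows of 50 bases in Scd2 (3.97%) also occurred in another gene, 145 of them in Scd1, but no window of 150 bases, the read length, did. No window of 50 bases in Fads1, Elovl2, Elovl3 or Elovl5 occurred in another gene.

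Total counts per library were between 26854377 and 33058645, so that 3 counts correspond to between 9.07e-06% and 1.12e-05% of a library. Rnf10 itself had normalized read counts of 3869, 4536 and 4040 in the GalNAc-siNC mice and 1738, 1820 and 1793 in the GalNAc-siRnf10 mice. It fell by 1.22 on the log2 scale (SE 0.071), and the groups did not overlap. Of the 14046 genes tested, 1965 (14.0%) passed an adjusted p of 0.05, 943 of them higher (6.71%) and 1022 lower (7.28%) in GalNAc-siRnf10 livers. The groups did not overlap in 4614 genes (32.8%). GalNAc-siNC mouse 1 stood apart from its group: its counts differed from those of mice 2 and 3 by a chi-square per gene of 30.6 and 29.8, against 10.4 between mice 2 and 3 and 4.71 to 5.40 among the GalNAc-siRnf10 mice. Where a call among the 9 genes changed without it, the value without it is given.

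All 9 genes passed the filter on low counts. Fads3 and Elovl5 rose, Fads1 fell, and the other 6 did not pass the test, so that 3 of 9 (33.3%) were called, against the 14.0% of all tested genes. The groups did not overlap in 6 of the 9, against 32.8% of all genes: Fads1, Fads2 and Elovl1 were lower in every GalNAc-siRnf10 mouse, and Fads3, Elovl3 and Elovl5 were higher. The changes were small, with a median absolute log2 difference of 0.19 over the 9 genes and 0.18 over all tested genes. The median signed log2 difference was -0.039, and that of all genes was 0.0022. Without GalNAc-siNC mouse 1, 5 of the 9 were called, with Elovl2 and Elovl3 added.

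**Figure D1:**
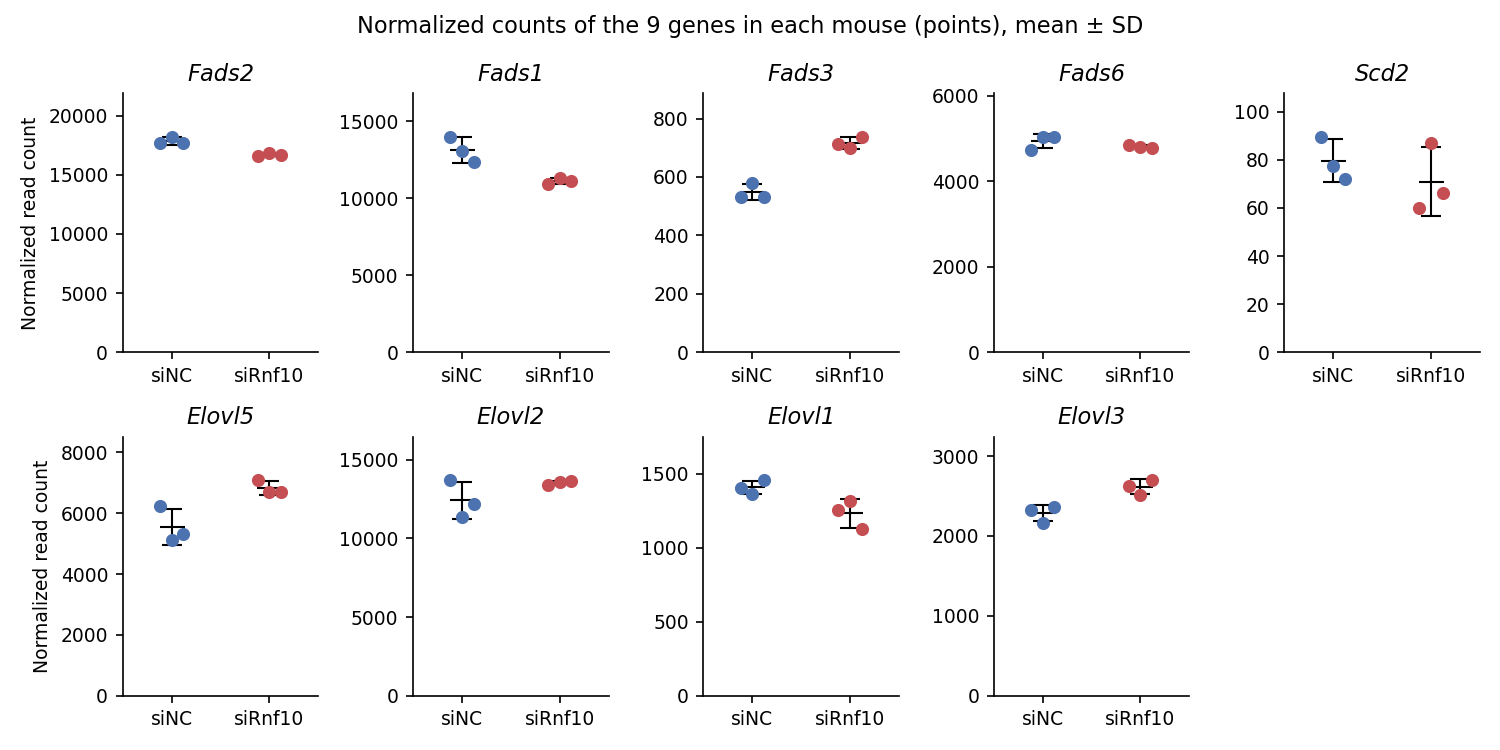
Normalized read counts (vertical axis, from 0) of the 9 genes in each mouse, with GalNAc-siNC in blue and GalNAc-siRnf10 in red, and black bars for the mean ± SD of 3 mice. The groups are apart for Fads1, Fads2, Fads3, Elovl1, Elovl3 and Elovl5 and overlap for Fads6, Scd2 and Elovl2.

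Fads2 (ENSMUSG00000024665, chromosome 19, 10062765 to 10101746, minus strand), the delta-6 desaturase of the first step, had the highest level per kilobase of the 9. Its normalized counts were 17672, 18227 and 17648 with GalNAc-siNC and 16599, 16848 and 16671 with GalNAc-siRnf10. Every GalNAc-siRnf10 mouse lay below every GalNAc-siNC mouse, and both groups were tight, with coefficients of variation of 1.83% and 0.769%. The log2 difference of -0.10 (SE 0.051, 95% interval -0.20 to 0.011) did not pass the test (adjusted p = 0.242), and the interval reaches from 13.1% lower to 0.789% higher. With a correction for GC content and length it was -0.028.

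Fads1 (ENSMUSG00000010663, chromosome 19, 10182888 to 10196877, plus strand), the delta-5 desaturase, lies near Fads2 on the same chromosome. It had counts of 13997, 13035 and 12362 in the GalNAc-siNC mice and 10944, 11330 and 11122 in the GalNAc-siRnf10 mice. The groups did not overlap, and Fads1 fell by 15.2% (log2 difference -0.24, SE 0.058, 95% interval -0.36 to -0.12, adjusted p = 0.00986). Without any 1 of the 3 GalNAc-siRnf10 mice the call was lost, with adjusted p of 0.0896, 0.0532 and 0.0729, while the log2 difference stayed between -0.25 and -0.23 in these fits.

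Fads3 (ENSMUSG00000024664, chromosome 19, 10041569 to 10060110, plus strand) is the gene of the Fads cluster that acts on sphingoid bases, and it was the least abundant of the 3 clustered genes. Its counts were 533, 579 and 532 with GalNAc-siNC and 711, 699 and 738 with GalNAc-siRnf10, without overlap. Fads3 rose by 30.8% (log2 difference 0.39, SE 0.088, 95% interval 0.20 to 0.57, adjusted p = 0.00642). It passed the test in each of the 6 fits that left out a mouse, with a highest adjusted p of 0.0488. The neighbours of the cluster behaved as follows: Tmem258 had a log2 difference of 0.33 (adjusted p = 0.0751) and Myrf one of -0.21 (adjusted p = 0.115), neither past the threshold, and Fen1 was too low to test, with 1 count in each GalNAc-siNC mouse and 13, 7 and 4 counts in the GalNAc-siRnf10 mice.

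Fads6 (ENSMUSG00000044788, chromosome 11, 115279622 to 115297663, minus strand) is a member of the desaturase family outside that cluster. Its counts were 4739, 5041 and 5028 against 4843, 4793 and 4773, and the groups overlapped. The log2 difference was -0.039 (SE 0.059, 95% interval -0.16 to 0.084, adjusted p = 0.722), and under a correction for GC content and length its sign turned, to 0.048. Without GalNAc-siNC mouse 1 it was -0.070. Scd2 (ENSMUSG00000025203, chromosome 19, 44293674 to 44306864, plus strand), a delta-9 desaturase of brain and developing tissues, was the least abundant of the 9, with normalized counts of 89.7, 77.4 and 72.1 against 59.9, 87.0 and 66.0. Its log2 difference of -0.16 (SE 0.21, adjusted p = 0.674) has a 95% interval from -0.61 to 0.28, so a change of that size was not detectable at this depth. It ranged from -0.34 without GalNAc-siRnf10 mouse 2 to -0.058 without mouse 1 of that group, and was -0.069 without GalNAc-siNC mouse 1. How any reads matching both Scd2 and Scd1 were counted is not given in the sources used here, and Scd1 had far more reads, so the values of Scd2 are uncertain.

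Elovl5 (ENSMUSG00000032349, chromosome 9, 77917364 to 77984519, plus strand), the elongase between Fads2 and Fads1, had counts of 6228, 5124 and 5322 in the GalNAc-siNC mice. In the GalNAc-siRnf10 mice it had 7087, 6686 and 6705, all above the highest control. Elovl5 rose by 22.8% (log2 difference 0.30, SE 0.071, 95% interval 0.15 to 0.45, adjusted p = 0.00909). The call was lost without GalNAc-siNC mouse 3 (adjusted p = 0.0522) and without GalNAc-siRnf10 mouse 1 (adjusted p = 0.0835). Without GalNAc-siNC mouse 1, its highest control, the log2 difference was 0.38.

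Elovl2 (ENSMUSG00000021364, chromosome 13, 41182381 to 41220405, minus strand), which elongates the longer polyunsaturated chains, had counts of 13710, 11380 and 12198 against 13426, 13571 and 13661. The groups overlapped through GalNAc-siNC mouse 1 alone, which lay above all 3 GalNAc-siRnf10 mice. The log2 difference was 0.12 (SE 0.064, adjusted p = 0.227). Without GalNAc-siNC mouse 1 it was 0.20 and passed the test (adjusted p = 0.00075), and without GalNAc-siNC mouse 2, the lowest of its group, it was 0.063 (adjusted p = 0.536).

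Elovl3 (ENSMUSG00000038754, chromosome 19, 46131897 to 46135694, plus strand), an elongase of saturated and monounsaturated chains that is known for a daily rhythm and higher levels in male liver, had counts of 2328, 2169 and 2362 against 2632, 2519 and 2700. The groups did not overlap, but the log2 difference of 0.20 (SE 0.067, 95% interval 0.054 to 0.34) narrowly missed the threshold (adjusted p = 0.063). Without GalNAc-siNC mouse 1 it was 0.21 (adjusted p = 0.0104), and with the GC content and length correction it was 0.10 (adjusted p = 0.248). Elovl1 (ENSMUSG00000006390, chromosome 4, 118428093 to 118432953, plus strand), which lengthens saturated and monounsaturated chains to the very long lengths of sphingolipids, had 1400, 1365 and 1456 against 1251, 1318 and 1125. Here too the groups did not overlap and the test was not passed (log2 difference -0.19, SE 0.078, adjusted p = 0.117). Elovl1 shares 53 exonic bases with Cdc20 and Elovl3 shares 10 with Pitx3, both on the opposite strand, and these partners had at most 17 and 22 counts in any library.

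**Figure D2:**
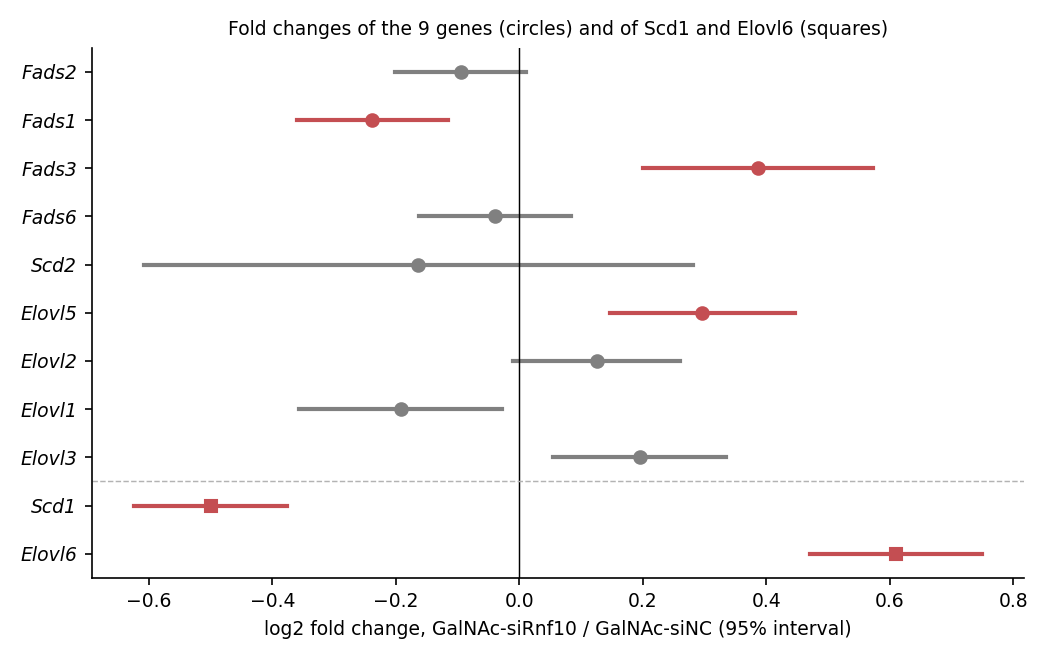
Log2 fold change (horizontal axis) of GalNAc-siRnf10 over GalNAc-siNC livers with its 95% interval for the 9 genes (circles) and for Scd1 and Elovl6 (squares), red where the adjusted p was under 0.05. Fads1 and Scd1 lie to the left of 0 and Fads3, Elovl5 and Elovl6 to the right.

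The relatives left out of the 9 genes moved further. Scd1, the main delta-9 desaturase of liver, had counts of 76681, 65227 and 67672 against 49963, 48562 and 49664, a log2 difference of -0.50 (SE 0.059, adjusted p = 1.29e-05). Elovl6, which elongates palmitate, had 2112, 1910 and 1978 against 3097, 3009 and 3052, a log2 difference of 0.61 (SE 0.066, adjusted p = 5.29e-06). Of the 9 genes, the largest absolute log2 difference was 0.39, that of Fads3. Degs1, the third of the relatives with enough reads, had a log2 difference of 0.063 (adjusted p = 0.634). Scd3, Scd4, Elovl4, Elovl7 and Degs2 were not tested, with at most 20 counts in a library.

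Levels were compared between genes as CPM, the normalized counts as a share of the library, divided by the length of the gene in kilobases. In GalNAc-siNC livers Fads2 led with 183 ± 3.35 (SD, n = 3), followed by Elovl2 at 106 ± 10.1 and Fads1 at 92.0 ± 5.76, whose ranges overlapped. Elovl5 (53.2 ± 5.63), Elovl3 (39.0 ± 1.76), Fads6 (25.0 ± 0.866), Elovl1 (17.4 ± 0.573), Fads3 (4.87 ± 0.238) and Scd2 (0.492 ± 0.0555) came next, each below the one before in all mice. The order was the same in GalNAc-siRnf10 livers, with no overlap between neighbours: Fads2 at 171 ± 1.31, Elovl2 at 115 ± 1.01, Fads1 at 78.0 ± 1.36 and Elovl5 at 65.3 ± 2.17 were the highest 4. Elovl2 thus stood 1.15-fold over Fads1 with GalNAc-siNC and 1.48-fold with GalNAc-siRnf10, and Fads1 stood 1.73-fold and 1.19-fold over Elovl5.

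The sum over the 9 genes was the same in the groups within the spread of the mice, while its make-up differed. The summed level was 520.2 ± 18.3 in GalNAc-siNC livers (541, 509 and 511) and 520.4 ± 0.834 in GalNAc-siRnf10 livers (520.0, 521 and 519.9; exact permutation test, two-sided, p = 1.0). Fads1 made up 18.1, 18.0 and 17.0% of it in the GalNAc-siNC mice and 14.7, 15.2 and 15.0% in the GalNAc-siRnf10 mice. The share of Elovl5 was 11.0, 9.64 and 9.97% against 13.0, 12.3 and 12.3%. That of Fads2 averaged 35.1% against 32.8%, that of Elovl2 20.3% against 22.1%, that of Elovl3 7.50% against 8.58%, that of Elovl1 3.35% against 2.92% and that of Fads3 0.937% against 1.22%. These 7 shares did not overlap between the groups, with an exact permutation p of 0.1 each, the smallest that 3 against 3 mice can give. The shares of a mouse add up to the whole, so a lower share of some genes raises others, and the 7 are not separate results. The level of Elovl2, unlike its share, overlapped between the groups. The shares of Fads6 (4.82% against 4.68%) and Scd2 (0.0944% against 0.0841%) overlapped.

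**Figure D3:**
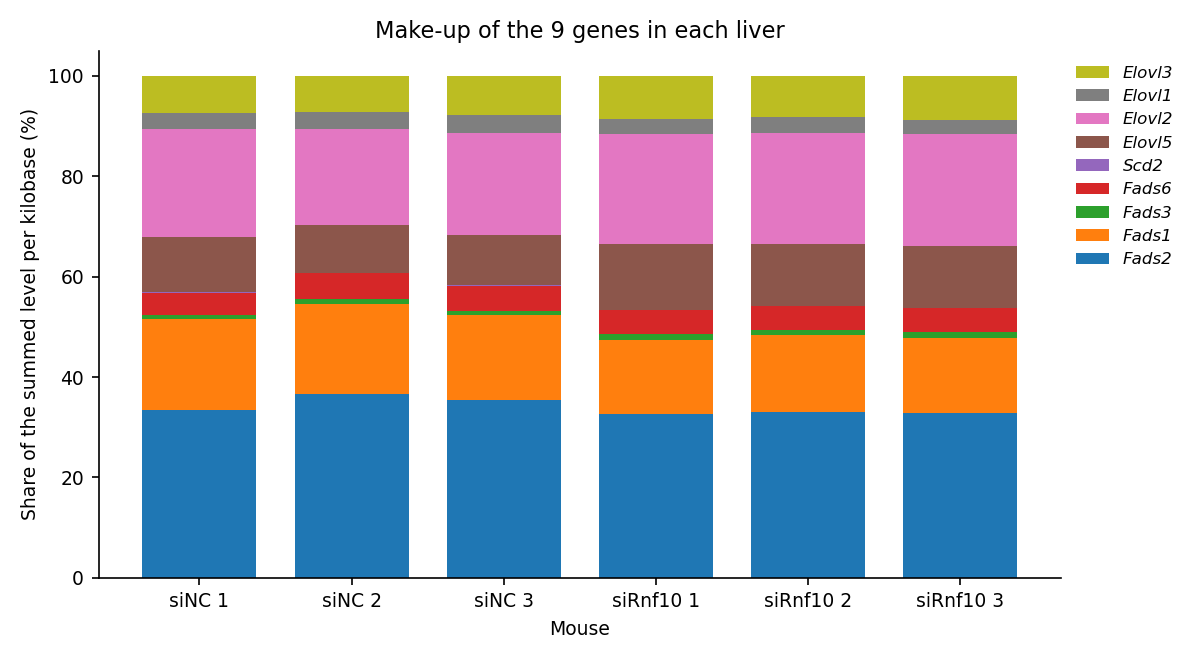
Share of each of the 9 genes (colours) in their summed level per kilobase, in percent (vertical axis), for each mouse (bars). The Fads1 band is narrower in the 3 GalNAc-siRnf10 livers and the Elovl5 band wider.

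Ratios between enzymes of successive or equal steps were taken within each mouse, on the level per kilobase. Log2 of Fads2 over Fads1 was 0.883, 1.03 and 1.06 in the GalNAc-siNC mice and 1.15, 1.12 and 1.13 in the GalNAc-siRnf10 mice, a difference of 0.14 that was 0.087 without GalNAc-siNC mouse 1. Log2 of Elovl5 over Elovl2 was -0.967, -0.980 and -1.02 against -0.750, -0.850 and -0.855, a difference of 0.17. Log2 of Scd2 over Scd1 was -9.90, -9.88 and -10.03 against -9.86, -9.28 and -9.71, a difference of 0.32. Scd1 itself had a log2 difference of -0.50 and Scd2 one of -0.16, which did not pass the test. The low counts of Scd2 make the difference in this ratio uncertain. It was 0.15 without GalNAc-siRnf10 mouse 2 and 0.44 without mouse 1 of that group. None of the 3 ratios overlapped between groups, and each had an exact two-sided permutation p of 0.1, also after adjustment over the 3.

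Among mice of the same group, some pairs of the 9 genes had a Pearson's r far from 0. After the group means were removed, r over the 6 mice was 0.906 for Elovl2 and Elovl5, the highest of all pairs. GalNAc-siNC mouse 1 was the highest of its group for both, by 0.15 and 0.17 on the log2 scale above the group mean. Within the GalNAc-siRnf10 mice this pair ran the other way. The log2 deviations there were -0.014, 0.002 and 0.012 for Elovl2 and 0.055, -0.029 and -0.025 for Elovl5. The lowest r of all pairs were -0.937 for Fads6 and Elovl2 and -0.913 for Fads2 and Elovl3. For Fads1 and Fads2, genes of the same cluster, r was 0.060. These values describe 6 mice of unequal library depth, with GalNAc-siNC mouse 1 among them, and no test was made of them. For the likenesses to other genes that follow, the group means were kept, so the difference between the groups enters r. The genes whose level followed Fads1 most closely over the 6 mice, among 11061 protein-coding genes, were Tspan14 (r = 0.998), Dhx40 and Cdt1. Those nearest to Fads3 were Nop56, Sbk1 and Ahcy, and those nearest to Elovl5 were Sdr9c7, Ptar1 and Cyb5b (r = 0.997), an outer mitochondrial membrane cytochrome b5. Many other genes followed Fads1, Fads3 and Elovl5 nearly as closely.

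**Figure D4:**
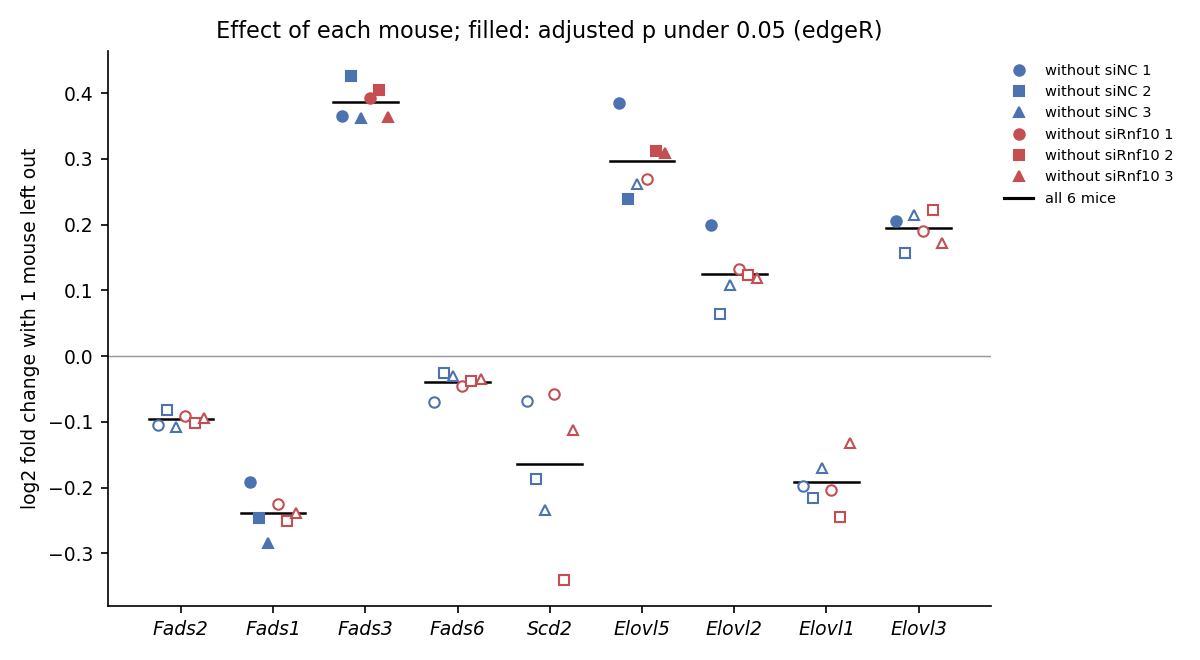
Log2 fold change (vertical axis) of each of the 9 genes when 1 mouse is left out, with blue symbols for fits without a GalNAc-siNC mouse, red for fits without a GalNAc-siRnf10 mouse, and filled symbols where the adjusted p was under 0.05. The black lines are the fits of all 6 mice, Fads3 is filled in all 6, and each of the 9 genes keeps its sign.

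Promoters of the 2 called genes with an entry in the table are printed next, since members that changed may be compared by what lies before their start sites. RefSeq sequences (GRCm38.p6) were given for 6 of the 9 genes, namely Fads2, Fads3, Fads6, Elovl1, Elovl2 and Elovl5. Shown are the 250 bases before the start, 5′ to 3′ on the coding strand, with matches to the motifs searched in capitals.
Elovl5 (chr9:77917115-77917364, plus strand): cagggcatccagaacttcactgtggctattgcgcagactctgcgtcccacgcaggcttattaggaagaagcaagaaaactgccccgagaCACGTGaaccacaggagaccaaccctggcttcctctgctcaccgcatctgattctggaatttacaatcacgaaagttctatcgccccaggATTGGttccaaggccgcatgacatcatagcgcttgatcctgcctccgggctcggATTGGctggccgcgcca
Fads3 (chr19:10041298-10041547, plus strand): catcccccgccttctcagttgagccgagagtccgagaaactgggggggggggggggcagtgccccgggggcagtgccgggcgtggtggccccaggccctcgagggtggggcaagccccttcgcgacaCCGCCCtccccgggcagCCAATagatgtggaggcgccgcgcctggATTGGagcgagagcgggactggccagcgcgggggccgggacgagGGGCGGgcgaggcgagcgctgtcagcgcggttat
The motifs were searched on both strands of 300 bases, including 50 after the start. Elovl5 held an E-box (CACGTG) 161 bases before its start, which 7.15% of the 32851 promoters in the table contain, and a pair of CCAAT boxes (ATTGG on the printed strand) at 71 and 17 bases, a motif in 37.4% of promoters. Fads3 held CCAAT boxes at 106 and 78 bases and GC boxes (GGGCGG, 35.7% of promoters) at 123 and 34. Neither they nor the other 4 genes had a match to the sterol element searched (TCACNCCAC, 1.24% of promoters), to the D-box TTATGCAA (0.743%), or to a pair of AGGTCA spaced by 1 or 4 bases (0.0396% and 0.0152%). An E-box was found in no other of the 6. GC and CCAAT boxes also lay before genes that were not called. Fads2 and Fads6 held 1 GC box each, and Elovl2 held 5 in 1 of its promoters. Elovl1 held 5 GC boxes and 1 CCAAT box in 1 promoter and 2 GC boxes in another. A match is a run of letters, and no binding was measured.

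The other genes of the pathway were read from lists. The proteins that complete each round of elongation, the reductases and dehydratases Hsd17b12, Tecr and Hacd1 to Hacd4, had log2 differences between -0.28 and 0.087. The test was passed by 0 of 6, against 14.0% of all tested genes. Of the 5 tested electron donors of the desaturases, 1 rose and 0 fell, where 6.71% of all tested genes were higher and 7.28% lower. The higher gene was Cyb5a, the cytochrome b5 of the endoplasmic reticulum. Cyb5a had counts of 16220, 17387 and 18882 against 24863, 24064 and 23605 (log2 difference 0.47, SE 0.059, adjusted p = 3.41e-05). Its reductase Cyb5r3 had a log2 difference of 0.096 (adjusted p = 0.334) and Cyb5b one of 0.15 (adjusted p = 0.098).

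Docosahexaenoic acid synthesis ends with a shortening of the chain in peroxisomes. Of 10 tested genes of this step, 1 was higher and 1 lower, where 6.71% of all tested genes were higher and 7.28% lower. The median log2 difference of the 10 was 0.007. The higher gene was Abcd2, a peroxisomal importer of very-long-chain acyl-CoA. It had counts of 239, 213 and 211 against 452, 456 and 390 (log2 difference 0.97, adjusted p = 1.68e-05). Of 8 acyl-CoA synthetases and transporters tested, 1 was called (12.5%), near the 14.0% of all tested genes. It was Acsl3, at 1375, 1083 and 1206 against 973, 846 and 873 (log2 difference -0.45, adjusted p = 0.00332).

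Of the 6 tested acyltransferases that place fatty acids into phospholipids, 3 fell and 0 rose, where 7.28% of all tested genes were lower and 6.71% higher, with a median log2 difference of -0.24, against 0.0022 over all tested genes. Lpcat3, which places polyunsaturated chains in phosphatidylcholine, had 2664, 2615 and 2407 against 1829, 1966 and 2011 (log2 difference -0.40, adjusted p = 0.000698). Mboat7, which places arachidonate in phosphatidylinositol, had a log2 difference of -0.38 (adjusted p = 0.00568), and Lpgat1 one of -0.37 (adjusted p = 0.000382). All 3 were lower in every GalNAc-siRnf10 mouse than in any GalNAc-siNC mouse, which adds little to their being called in the same mice. The groups did not overlap in 4 of the 6, against 32.8% of all tested genes. Of 8 tested genes that release or oxygenate polyunsaturated fatty acids, 2 were called (25.0%, against 14.0% of all tested genes). The epoxide hydrolase Ephx1 rose (log2 difference 0.55, adjusted p = 1.91e-06), and the phospholipase Pla2g6 fell (log2 difference -0.30, adjusted p = 0.0385).

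**Figure D5:**
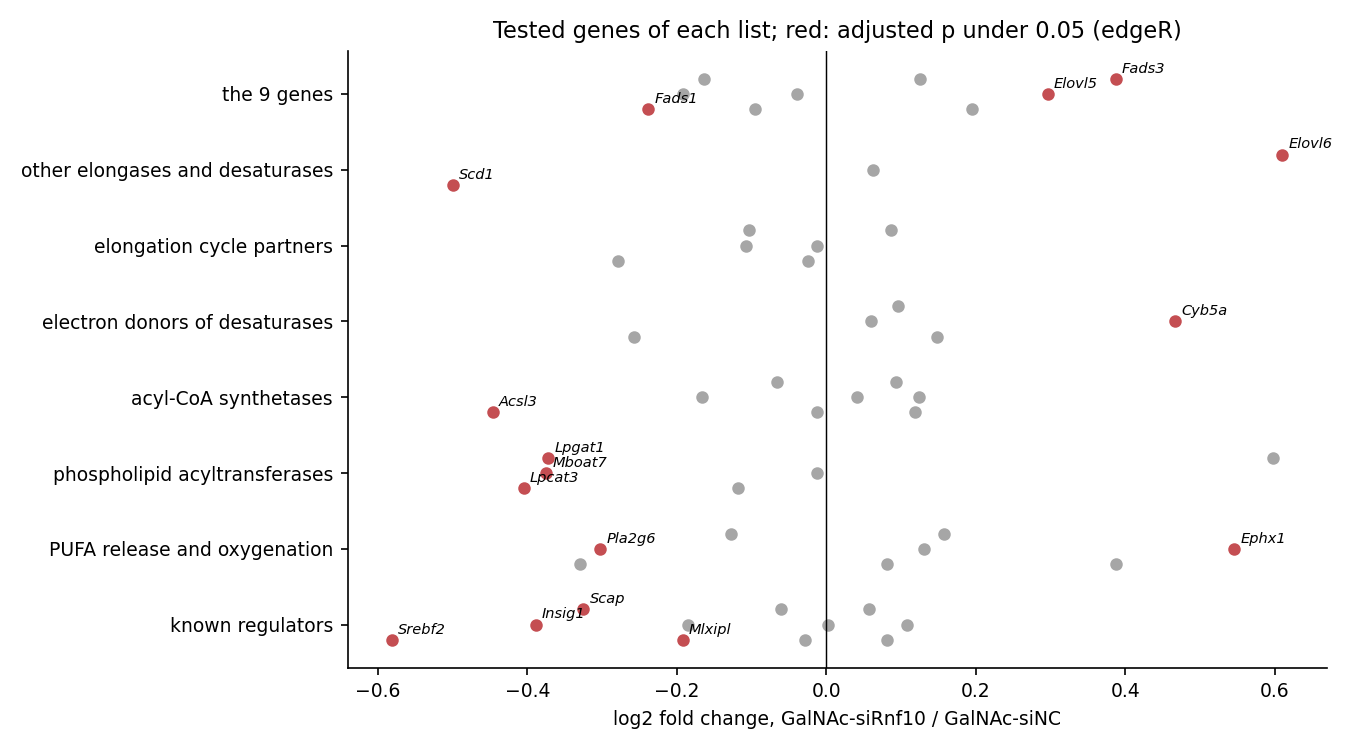
Log2 fold change (horizontal axis) of every tested gene of the 9 and of 7 lists of the pathway, each list on its own line with points shifted up and down for legibility, red and named where the adjusted p was under 0.05. All 3 red acyltransferases and all 4 red regulators lie to the left of 0.

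Of 11 regulators of these enzymes, 4 fell and 0 rose, where 7.28% of all tested genes were lower and 6.71% higher. Srebf2, the regulator of sterol synthesis, had counts of 2658, 2878 and 2501 against 1772, 1781 and 1817 (log2 difference -0.58, adjusted p = 1.76e-05). Insig1, which holds SREBP precursors in the endoplasmic reticulum, had 11019, 10563 and 10999 against 8476, 8127 and 8270 (log2 difference -0.39, adjusted p = 8.23e-05). Scap, their escort, and the carbohydrate-response factor Mlxipl had log2 differences of -0.32 (adjusted p = 0.0217) and -0.19 (adjusted p = 0.045). Srebf1, which encodes SREBP-1c, had 6513, 7686 and 6391 against 5956, 6276 and 5879 (log2 difference -0.18, adjusted p = 0.0938), and Ppara and Nr1h3 had log2 differences of 0.002 and -0.028, with adjusted p of 0.991 and 0.886.

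Other genes moved with the same groups. Of 16 tested clock genes, 5 were higher (Per1, Ciart, Cry1, Per2 and Per3, log2 differences of 0.40 to 1.74) and 1 was lower (Nr1d1, -0.68) in GalNAc-siRnf10 livers, against 6.71% and 7.28% of all tested genes, and Elovl3 is known to follow the clock. The hour at which each liver was taken is not given in the sources used here, and its part in the values of Elovl3 or the other genes was not tested. Of 7 hepatocyte markers found, 5 were higher, against 6.71% of all tested genes, and Alb took 3.72 to 4.36% of counts in GalNAc-siNC and 5.93 to 6.08% in GalNAc-siRnf10 libraries. In RNA of whole liver, fewer cells of a type and less RNA per cell cannot be told apart. The summed CPM of the 7 Kupffer cell markers was 149 to 173 against 160 to 166 (0 called). That of 6 endothelial markers was 70.4 to 72.3 against 75.7 to 80.5 (2 higher). For 7 stellate cell markers it was 92.0 to 94.2 against 107 to 108 (2 higher, Dcn and Reln, with a median log2 difference over the 7 of -0.20). For 6 cholangiocyte markers it was 68.5 to 69.9 against 37.8 to 39.0 (1 lower, Spp1, with a median log2 difference over the 5 tested of -0.26). For 6 leukocyte markers it was 7.26 to 8.74 against 6.21 to 8.67 (1 lower, S100a9). Among all tested genes, 6.71% were higher and 7.28% lower. Of 5 adipocyte markers, 4 were at 0 in all libraries. The part of these cells in the values of the 9 genes was not tested.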

How the data were processed

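Stranded mRNA libraries of 6 livers were sequenced as paired-end reads, which the authors mapped to GRCm38 with HISAT2 and deposited as raw counts per gene, without normalization. The submitters' processing notes also name DESeq2. The counting tool, annotation release and strand setting are not given in the sources used here. Symbols came from GENCODE M21, and 346 of 55487 genes had none.

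Counts went into edgeR 4.0.16 (R 4.3.3) after its filterByExpr step by group and TMM scaling. A robust quasi-likelihood model with treatment alone gave p-values, adjusted by Benjamini-Hochberg over 14046 genes, and genes under 0.05 were called. All adjusted p in the text come from this fit unless a left-out mouse, another method or correction, or a permutation test is named. Normalized counts are counts scaled to the mean TMM library size. Single values were compared by exact two-sided permutation tests (scipy 1.17.1), whose smallest p with 3 against 3 mice is 0.1. Floors of 3 counts cover counting error only. The fit was tested on simulated data.

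The members and lists were chosen with earlier results of these data known. Named genes are Rnf10, the 9 genes, Scd1, Elovl6, called genes of each list (a called gene is not reported here), any gene of short lists, and the 3 most similar genes of each called member. Srebf1, Ppara and Nr1h3, of a longer list, were named after their values were seen. The Tf symbol of the hepatocyte list was not matched. Alternatives were other normalizations (RLE, upper quartile), other filters, DESeq2 1.42.0, limma 3.58.1 voom with sample weights, the replicate block, a GC content and length correction, other thresholds, a fit without the robust option, levels without TMM or length, and leaving out each mouse in turn. Figures were drawn with matplotlib 3.10.9.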

Additional observations from a re-analysis of the deposited data

How the results depend on the processing

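Of the 9 genes, 3 were called in the reported fit and also with RLE or upper quartile normalization, with other filters, with DESeq2, without the robust option, with the GC content and length correction and at an adjusted p under 0.01. By limma voom with sample weights, 5 were called, with Elovl2 (log2 difference 0.15, adjusted p = 0.0432) and Elovl3 (0.19, adjusted p = 0.0427) added. With an absolute log2 difference of at least 1 required, 0 of the 9 and 227 of all genes were called, and at an adjusted p under 0.01, 1042 of all genes were. With 1 mouse left out, between 1 and 5 of the 9 and between 1053 and 2864 of all genes were called. The count was 1 of the 9 without GalNAc-siRnf10 mouse 1 and 5 without GalNAc-siNC mouse 1. Over all genes it was 1053 without GalNAc-siRnf10 mouse 1 and 1128 each without mouse 2 or 3. The log2 difference of Fads6 turned to 0.048 with the GC content and length correction and to 0.049 with that correction and the replicate block. The correction alone also moved Fads2 to -0.028 and Elovl3 to 0.10 (adjusted p = 0.248). The cause was not tested.

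The replicate number as a block gave 3 called of the 9 and 1816 of all genes and changed no call among the 9. Mice with the same number did not vary together (r of -0.004, 0.071 and -0.057 over 10945 genes), and the labels pair no animals. The ratio of Fads2 over Fads1 differed by 0.087 to 0.18 on the log2 scale with 1 mouse left out, that of Elovl5 over Elovl2 by 0.14 to 0.19, and that of Scd2 over Scd1 by 0.15 to 0.44. Under every alternative fit, the median log2 difference of all genes lay between -0.0081 and 0.016.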
